A study of Homo sapiens with 42 samples.

Results

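DNA bound to topoisomerase 2A (TOP2A) and recovered by antibody from etoposide-treated KG-1 cells was set against input DNA from cells given the same drug, to ask where in the centromeric satellites trapped TOP2A was enriched. The comparison used 8 of the 42 libraries of the series, chosen by their labels: 4 TOP2A pulldown libraries and 4 input libraries, joined in 4 pairs by the replica named in the annotation. All 2523 counted regions were included. KG-1 is an established line of human acute myelogenous leukaemia cells, so all groups share 1 cell line and its karyotype. The TOP2A pulldown libraries and the input libraries came from cells kept for 1 h in 100 µM etoposide. Further libraries entered the fit of single regions, where they share in the estimate of the spread, or a test of a difference: TOP2B pulldown with etoposide, TOP2A pulldown, TOP2B pulldown and input from cells of the same replicas given vehicle, and, for class shares alone, TOP2A pulldown and input from 3 other replicas given 20 µM mitoxantrone for 1 h. Per the labels' protocols, chromatin was sonicated, pulled down on beads, treated with TDP2 and digested with BsmAI before library construction, and no cross-linking step is named. The labels do not say whether replicas were separate cultures, so p-values measure the spread between these libraries, which may be technical.

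TOP2A cuts both strands of a DNA duplex, passes another duplex through the gap and seals the cut, and during the reaction each subunit is joined covalently to a 5′ end. Etoposide is a TOP2 poison that slows the sealing step, so that the enzyme stays bound to cut DNA, and TDP2 is the enzyme that removes such protein from 5′ ends. Human centromeres are built of alpha satellite arrays, flanked by human satellites (HSat), beta and gamma satellites and by transition sequence that is mostly not satellite, and TOP2A is known to gather at centromeres in mitosis.

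The TOP2A libraries held 11146185, 2102470, 552909 and 4423273 reads in replicas 1 to 4, and the input libraries held 18574241, 22686519, 1766857 and 12746771. Reads in the named regions numbered 577168, 71055, 23900 and 181219 in the TOP2A libraries, against 906419, 1136711, 77373 and 575088 in the input libraries. The TOP2A library was thus the shallower one in every pair, by 1.57, 16.0, 3.24 and 3.17 times in region reads, and the TOP2A library of replica 3 was the smallest. Of the reads that were placed, inside or outside a named region, between 6.65% and 7.06% fell in a region in all 8 libraries. Reads set aside for low mapping quality, among which reads of repeated arrays would be found, were 22.1%, 52.1%, 36.6% and 40.4% of all reads in TOP2A and 26.7%, 28.7%, 37.1% and 35.8% in input. The TOP2A library of replica 2 stood apart, and the mean log2 ratio of this share was 0.19 (SD 0.49, n = 4 pairs, exact sign permutation p = 0.75). All values below describe the reads that were kept, relative to the other region reads of a library. A gain of trapped enzyme shared by all regions would not show in them. Replica 1 was read at 38 bp and the others at 50 bp, and the comparison spans 3 sequencing orders, of which replicas 3 and 4 share 1.

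Alpha satellite, the repeat of the centromere itself, took no common direction in TOP2A pulldown. Higher-order alpha satellite is the class of homogeneous arrays, among them the live arrays that carry the kinetochore. It held 0.0319%, 0.949%, 0.883% and 0.0927% of region reads in TOP2A replicas 1 to 4, against 0.104%, 0.753%, 0.319% and 0.933% in input. TOP2A was below input in replicas 1 and 4 and above it in replicas 2 and 3, and the ranges of the groups overlapped. The log2 ratios of the shares, computed with a pseudocount of 0.5 reads, were -1.70, 0.33, 1.47 and -3.33 (mean -0.81, SD 2.13, n = 4 pairs, exact sign permutation p = 0.625). With 4 pairs the smallest p this test allows is 0.13 (rounded), so no class could pass a threshold of 0.05. The 41 higher-order regions labelled as live arrays had log2 ratios of -1.85, 0.59, 1.44 and -3.18. The 79 others had -0.98, -0.62, 1.60 and -4.23. Monomeric alpha satellite, the older repeats beside the arrays, held 0.303%, 2.23%, 4.13% and 0.389% in TOP2A, against 0.442%, 3.88%, 1.72% and 3.13% in input, with a mean log2 ratio of -0.77 (SD 1.75, exact p = 0.5). Divergent higher-order alpha satellite, whose array structure has decayed, had log2 ratios of -1.26, -1.07, 1.55 and -3.20 (mean -0.996, SD 1.95, exact p = 0.5). Both were lower in 3 replicas and higher in replica 3.

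Replicas 3 and 4 moved these classes in opposite directions, and other libraries of the same replicas show where each stood. In replica 4, monomeric alpha satellite took 0.389% of region reads in TOP2A with etoposide, against 3.00% in TOP2B and 3.13% in input with the same drug, while the libraries of that replica without drug held 0.516% in TOP2A, 0.479% in TOP2B and 0.721% in input. By its share of monomeric alpha satellite, the TOP2A library labelled with etoposide thus lay beside the libraries without drug. Other satellites were split, as the values of HSat4, HSat1B on chromosome Y and beta satellite given below show. None of the replica 4 libraries without drug held a share of monomeric alpha satellite near that of TOP2B or input with etoposide. Whether a label was exchanged was not tested. Each replica 4 TOP2A value given here, such as -3.33 and -3.01 for higher-order and monomeric alpha satellite, is that of the library so labelled. In replica 3 the share was 4.13% in TOP2A and 3.95% in TOP2B with etoposide, against 1.72% in input with etoposide, and without drug TOP2A had 0.702%, TOP2B 0.875% and input 0.734%. Without replica 4 the mean log2 ratio of higher-order alpha satellite was 0.03 and that of monomeric alpha satellite -0.03, and without replica 3 they were -1.56 and -1.45. What set these libraries apart was not tested.

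**Figure D1:**
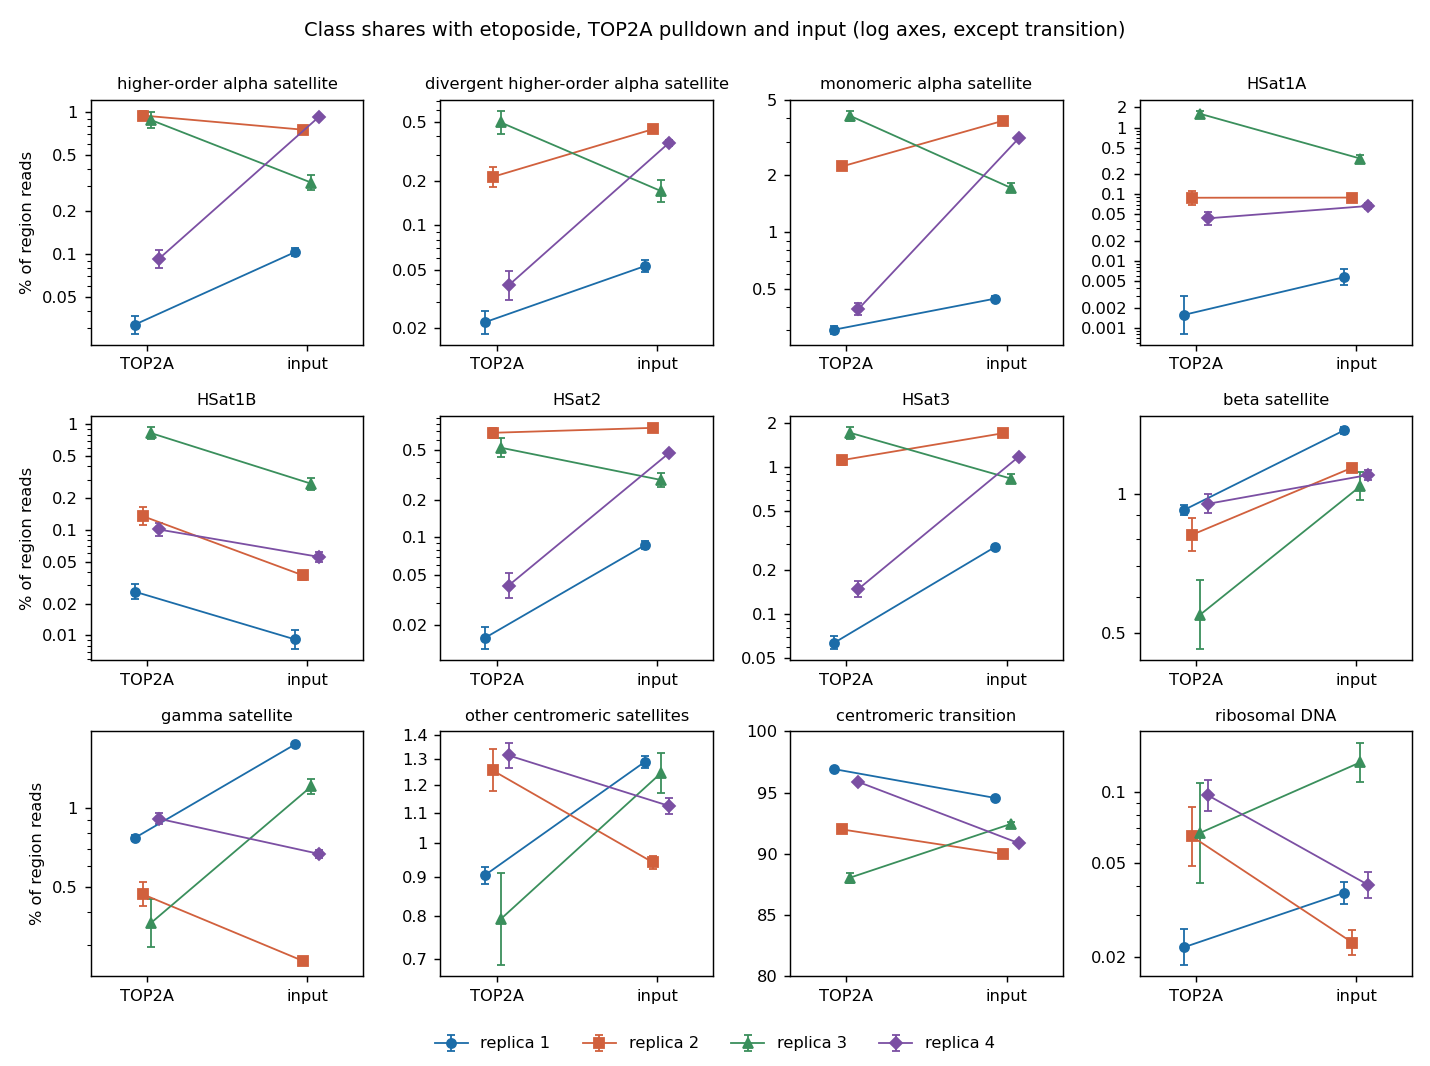
Share of region reads in each of 12 region classes, in percent, in the TOP2A pulldown and input libraries with etoposide. Points are libraries, lines join the pair of a replica and bars are 95% Wilson intervals of counting error. Axes are logarithmic except for centromeric transition. HSat1B is higher and beta satellite lower in TOP2A in 4 of 4 replicas, and the lines of the other classes cross or run both ways.

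HSat2 and HSat3, short repeats in long blocks beside some centromeres, were scattered in the same way. HSat2 held 0.0158%, 0.681%, 0.519% and 0.0414% in TOP2A, against 0.0867%, 0.746%, 0.287% and 0.469% in input. HSat3 held 0.0638%, 1.12%, 1.71% and 0.148% in TOP2A, against 0.285%, 1.70%, 0.836% and 1.18% in input. TOP2A was lower in replicas 1, 2 and 4 and higher in replica 3 for both. The mean log2 ratio was -1.30 for HSat2 (SD 2.01) and -1.18 for HSat3 (SD 1.78), each with an exact sign permutation p of 0.375. Without replica 3 the means were -2.03 and -1.92.

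HSat1B was the 1 class with a higher share in TOP2A in 4 of 4 replicas. It is a satellite found mostly on the long arm of chromosome Y, where it is also called DYZ2. It held 0.0260%, 0.135%, 0.828% and 0.101% of region reads in TOP2A, against 0.00916%, 0.0370%, 0.274% and 0.0555% in input. In each pair the 95% Wilson intervals, which cover counting error only, did not overlap, but the replicas differed by more than the pairs and the group ranges overlapped. The log2 ratios were 1.501, 1.87, 1.60 and 0.87, with a mean of 1.46 (2.75-fold, SD 0.43, n = 4 pairs, exact sign permutation p = 0.13, adjusted over 12 classes 0.75). HSat1B on chromosome Y had 1.59, 1.79, 1.48 and 0.95, and HSat1B on other chromosomes 1.15, 2.14, 1.76 and 0.39. The direction held in both parts.

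The read counts behind HSat1B were few and did not follow library size. They numbered 150, 96, 198 and 183 in TOP2A and 83, 421, 212 and 319 in input, whereas region reads spanned 23900 to 577168 in TOP2A and 77373 to 1136711 in input. In every pair the shallower library had the higher share, and the part of depth in this result was not tested. Without drug the HSat1B log2 ratios of TOP2A to input were 2.05, -0.34, 0.63 and 2.14, so 3 of 4 replicas were higher there too. HSat1A, a different and AT-rich satellite despite its name, had 1.61% of region reads in the TOP2A library of replica 3, against 0.342% in its input. In the other replicas it held 0.00156%, 0.0887% and 0.0436% in TOP2A, against 0.00574%, 0.0892% and 0.0668% in input, and the mean log2 ratio over the 4 pairs was -0.05 (SD 1.70, exact p = 1).

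Beta satellite was lower in TOP2A in 4 of 4 replicas. This repeat lies on the short arms of the acrocentric chromosomes and beside several other centromeres. It held 0.921%, 0.815%, 0.548% and 0.95% of region reads in TOP2A, against 1.37%, 1.14%, 1.04% and 1.10% in input. The ranges of the groups did not overlap. The log2 ratios were -0.57, -0.48, -0.91 and -0.21, with a mean of -0.54 (0.687-fold, SD 0.29, n = 4 pairs, exact sign permutation p = 0.13, adjusted 0.75). When the pairing was ignored, the exact label permutation of 4 against 4 libraries gave p = 0.0286, the smallest it allows. Beta satellite joined to the LSAU repeat had -1.11, -0.71, -1.12 and 0.04, and beta satellite without LSAU had 0.99, -0.29, -0.62 and -0.51, so neither part was lower in all 4 replicas. The class was also lower in 4 of 4 replicas without drug (mean -0.36, SD 0.14) and in 4 of 4 TOP2B libraries with etoposide (mean -0.51, SD 0.50), which share their input with TOP2A.

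Gamma satellite and ribosomal DNA split the replicas in another way. Gamma satellite, a GC-rich repeat beside the centromeres of several chromosomes, held 0.769%, 0.469%, 0.364% and 0.910% in TOP2A, against 1.75%, 0.261%, 1.21% and 0.668% in input. Ribosomal DNA, the arrays that encode the large ribosomal RNAs, held 0.0220%, 0.0647%, 0.0669% and 0.0966% in TOP2A, against 0.0374%, 0.0230%, 0.133% and 0.0403% in input. Each was lower in TOP2A in replicas 1 and 3 and higher in replicas 2 and 4. The mean log2 ratio was -0.40 for gamma satellite (SD 1.24, exact p = 0.625) and 0.26 for ribosomal DNA (SD 1.30, exact p = 0.75). The remaining centromeric satellites, as 1 class, followed the same signs, with -0.51, 0.41, -0.65 and 0.23 (mean -0.13, SD 0.53, exact p = 0.625). Within them SST1, a repeat found at several centromeres and subtelomeres, had -1.12, 0.81, -2.10 and 0.69, and ACRO, a repeat of the acrocentric short arms, had -0.35, 0.96, -1.62 and 0.84.

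Centromeric transition held most of the reads and had the smallest spread of log2 ratios among the 12 classes. Its share was 96.9%, 92.0%, 88.1% and 95.9% in TOP2A and 94.6%, 90.0%, 92.4% and 90.9% in input, a mean log2 ratio of 0.02 (SD 0.06, exact p = 0.625). Split by chromosome, however, the transition reads alternated, here as shares of the transition reads of a library and not of its region reads. Such shares add up to the whole, so a rise on some chromosomes requires a fall on others. On 9 chromosomes (2, 10, 11, 13, 16, 17, 19, 20 and 22) they were lower in TOP2A in replicas 1 and 3 and higher in replicas 2 and 4. On 8 chromosomes (3, 4, 5, 6, 8, 12, 21 and X) they ran exactly the other way. Chromosome 17 had log2 ratios of -0.19, 0.25, -0.58 and 0.46, and chromosome 3 had 0.30, -0.23, 0.83 and -1.13. No chromosome's transition share had the same sign in 4 replicas. Base composition of the regions is not used here, and its part in these opposed patterns was not tested.

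**Figure D2:**
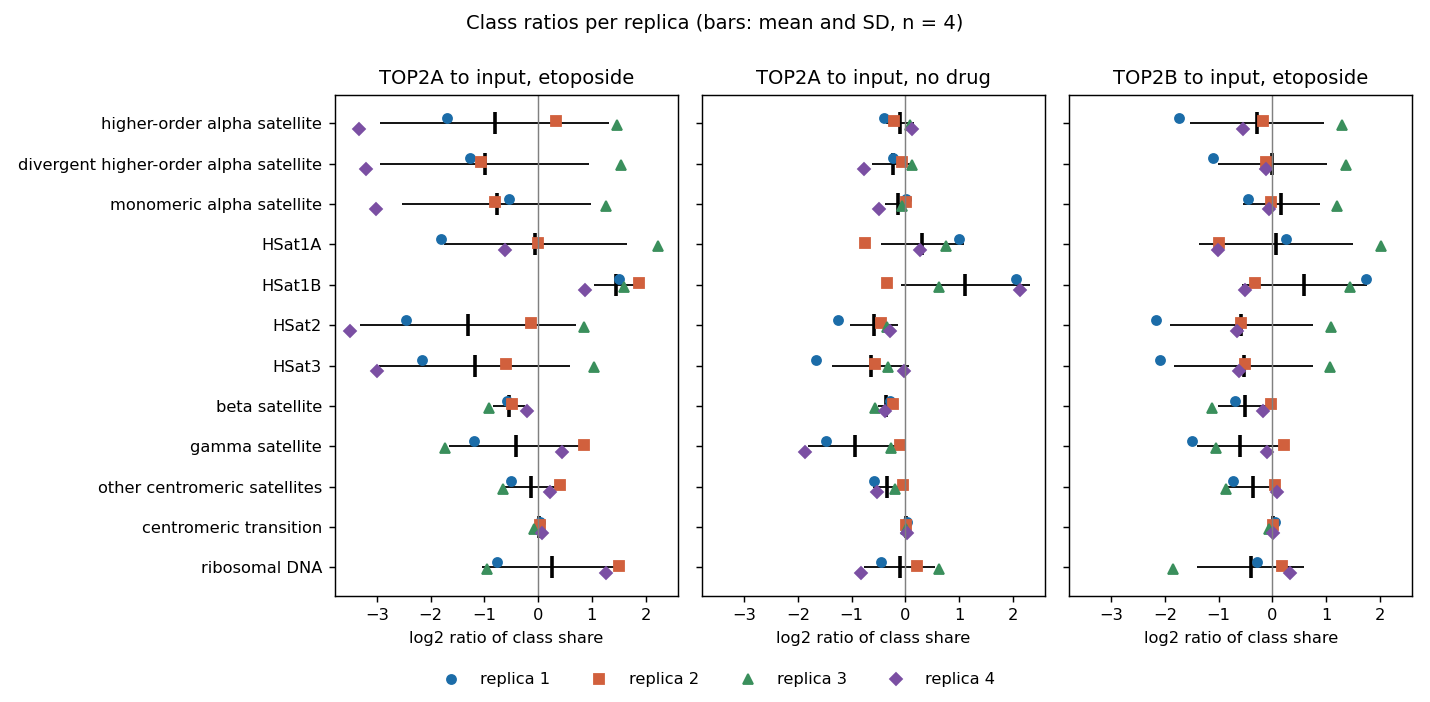
Log2 ratio of each class's share of region reads, TOP2A to input with etoposide (left), TOP2A to input without drug (middle) and TOP2B to input with etoposide (right). Coloured points are replicas, the upright bar is the mean and the horizontal line the SD over 4 replicas. With etoposide the alpha satellite classes, HSat2 and HSat3 spread from about the replica 4 values, such as -3.33 for higher-order alpha satellite, to positive values in replica 3, and without drug the same classes lie closer to 0.

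Single regions were tested with edgeR's quasi-likelihood fit on the counts of all 24 etoposide-series libraries, TOP2B and no drug included, with the replica within each treatment as a block. Of 2523 regions, 1068 passed the filter on low counts, and they held 99.2% of the region reads of the 8 libraries. No region was higher in TOP2A at an adjusted p under 0.05 (0.0% of 1068) and 1 was lower (0.0936%). At an unadjusted p under 0.05, 37 regions were higher (3.46%) and 150 were lower (14.0%). These counts depend on the spread shared with the other libraries. The SD of the higher-order alpha satellite ratios was 0.26 without drug and 2.13 with etoposide, while that of HSat1B was 1.19 and 0.43. In the fit of the 8 libraries alone, 40 of 957 regions tested had such a p in either direction. Without the replicate block, 27 of 1068 had one. DESeq2 on the same 1068 regions called 6 higher and 20 lower, and limma voom with quality weights called 7 higher and 1 lower. Leaving out replica 3 gave 16 higher (1.23%) and 98 lower (7.54%) of 1299 regions tested. Leaving out replica 1, 2 or 4 gave no call in either direction.

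The region past the threshold was hsat3_17_4, an HSat3 region on chromosome 17 of the A2 subfamily. It had 6, 10, 3 and 3 reads in TOP2A replicas 1 to 4, against 40, 477, 22 and 134 in input, which is 10.4, 141, 126 and 16.6 reads in TOP2A after scaling each library to 1000000 region reads (CPM) and 44.1, 420, 284 and 233 in input. TOP2A was lower than its own input in every pair, while the group ranges overlapped. The fitted log2 change was -2.09 (SE 0.36, 0.235-fold, edgeR adjusted p = 0.0168). The call was kept without replica 3, at -2.23 (edgeR adjusted p = 0.0147). It was lost without replica 1, 2 or 4, where the fitted change was -2.06, -2.33 and -1.74 (edgeR adjusted p = 0.0994, 0.364 and 0.192). It was also lost in the fit of the 8 libraries alone, at -2.10 (SE 0.51, edgeR adjusted p = 0.962).

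**Figure D3:**
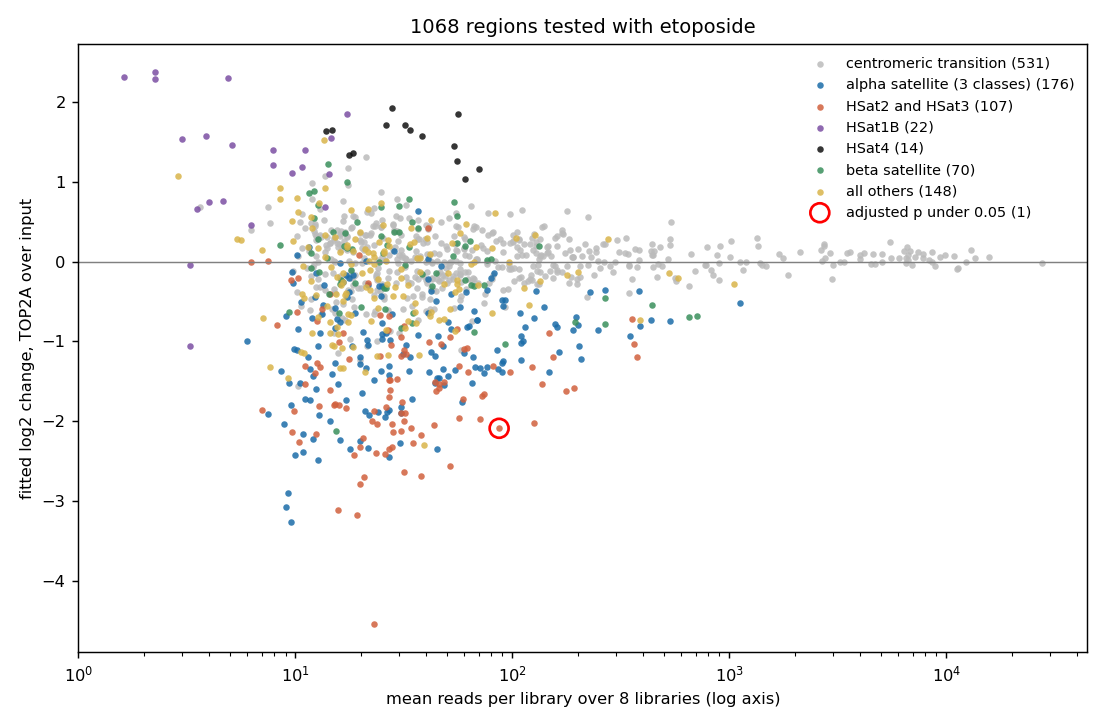
Fitted log2 change of TOP2A over input against the mean reads per library, for the 1068 regions tested, coloured by class (number of regions in brackets). The ring marks hsat3_17_4, the 1 region past the threshold. Transition regions with many reads lie near 0, alpha satellite, HSat2 and HSat3 regions lie mostly below 0 and HSat1B and HSat4 regions mostly above it.

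The fitted changes of regions differed between classes. Over all 1068 regions tested, 434 had a positive and 634 a negative fitted change, with a median of -0.13. At an unadjusted p under 0.05, 37 of all 1068 were above 0 (3.46%) and 150 were below 0 (14.0%), and the class counts below stand beside these shares. Of the 75 HSat3 regions tested out of 189, 72 were below 0 (median -1.51), 46 with an unadjusted p under 0.05. All 32 HSat2 regions tested out of 61 were below 0 (median -1.82), 20 with such a p. Of monomeric alpha satellite 107 of 191 regions were tested, with 102 below 0 (median -0.94, 48 with such a p), and of higher-order alpha satellite 43 of 120 were tested, with 42 below 0 (median -0.92, 8 with such a p). All 26 divergent higher-order regions tested out of 103 were below 0 (median -1.36, 10 with such a p). HSat1B had 22 of 64 regions tested, with 20 above 0 (median 1.30, 8 with such a p). Beta satellite had 70 of 184 tested, which split into 36 above and 34 below 0 (median 0.02) although the summed share of the class was lower in 4 of 4 replicas. HSat1A had 14 of 24 tested, with 10 above 0 (median 0.23), although the mean ratio of its summed share was -0.05. Centromeric transition had 531 of 856 tested, with 297 above and 234 below 0 and a median of 0.05. In replica 3 the summed shares of HSat2, HSat3 and the alpha satellite classes were higher in TOP2A, against the sign of most of their fitted changes. The regions of a class share reads of a class that moved together within a library, so they are not independent. The class counts at an unadjusted p under 0.05 rest on the fit of all 24 libraries and its shared spread.

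Among 419 regions with a mean of at least 50 reads, 24 were higher in TOP2A in all 4 replicas (5.73%) and 29 were lower in all 4 (6.92%). Together they were 12.6% of the 419, close to the share that random signs would give over 4 pairs. Of the 419, 280 were transition regions and 0 were HSat1B. The mean is of unscaled reads, and input was the deeper library in every pair. A region low in TOP2A could thus pass through its input reads. hsat3_17_4 passed with 6, 10, 3 and 3 reads in TOP2A, against 40, 477, 22 and 134 in input. The make-up of the higher and lower lists is thus set in part by this filter. The 24 included 22 of the 280 transition regions. Of these 22, 6 were among the 29 on chromosome 19 and 4 among the 19 on chromosome 7. Whether any class or chromosome held more than its share was not tested. The 29 were 14 of the 280 transition, 5 of 42 monomeric alpha satellite, 4 of 20 HSat3, 4 of 21 beta satellite, 1 of 5 HSat2 and 1 of 22 other satellite regions. The regions described next were picked by this sign rule and by small p, so their common sign is given and not read as a result.

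The 6 regions named at the higher end were all transition regions, and none passed the threshold. ct_19_34, on chromosome 19, had 594, 619, 1088 and 635 CPM in TOP2A, against 445, 472, 607 and 456 in input. The ranges overlapped only because the TOP2A library of replica 1 lay below the input of replica 3. Its fitted log2 change was 0.55 (SE 0.16, edgeR adjusted p = 0.0929). ct_19_7 had 1580, 1379, 1423 and 1468 CPM in TOP2A, against 1083, 1140, 956 and 1116 in input. Its TOP2A and input libraries did not overlap, and its fitted change was 0.49 (SE 0.17, edgeR adjusted p = 0.151). ct_20_4 had 522, 521, 628 and 508 in TOP2A, against 254, 422, 362 and 426 in input, again without overlap, with a fitted change of 0.63 (SE 0.21, edgeR adjusted p = 0.136). The fitted changes of ct_7_44, ct_19_4 and ct_9_47 were 0.60, 0.45 and 0.60, with edgeR adjusted p-values of 0.207, 0.226 and 0.226.

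At the lower end, 5 further regions were named that did not pass the threshold. hsat2_2_5, an HSat2 region on chromosome 2, had 5, 12, 2 and 3 reads in TOP2A, against 26, 421, 14 and 95 in input, with a fitted log2 change of -1.68 (SE 0.37, edgeR adjusted p = 0.0590). hsat3_22_10, on chromosome 22, had 11, 20, 3 and 6 reads in TOP2A, against 120, 599, 19 and 226 in input, with a fitted change of -2.02 (SE 0.47, edgeR adjusted p = 0.0590). In both, replica 4 had the lowest ratio and replica 3 the one nearest to 0. hsat3_1_3 had a fitted change of -1.66 (edgeR adjusted p = 0.0669) and mon_15_1, a monomeric alpha satellite region on chromosome 15, had -1.34 (edgeR adjusted p = 0.0804). bsat_22_8, a beta satellite and LSAU composite on chromosome 22, had 84, 4, 0 and 24 reads in TOP2A, against 314, 187, 14 and 114 in input, with a fitted change of -1.04 (SE 0.35, edgeR adjusted p = 0.136). These few reads per TOP2A library limit each value.

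**Figure D4:**
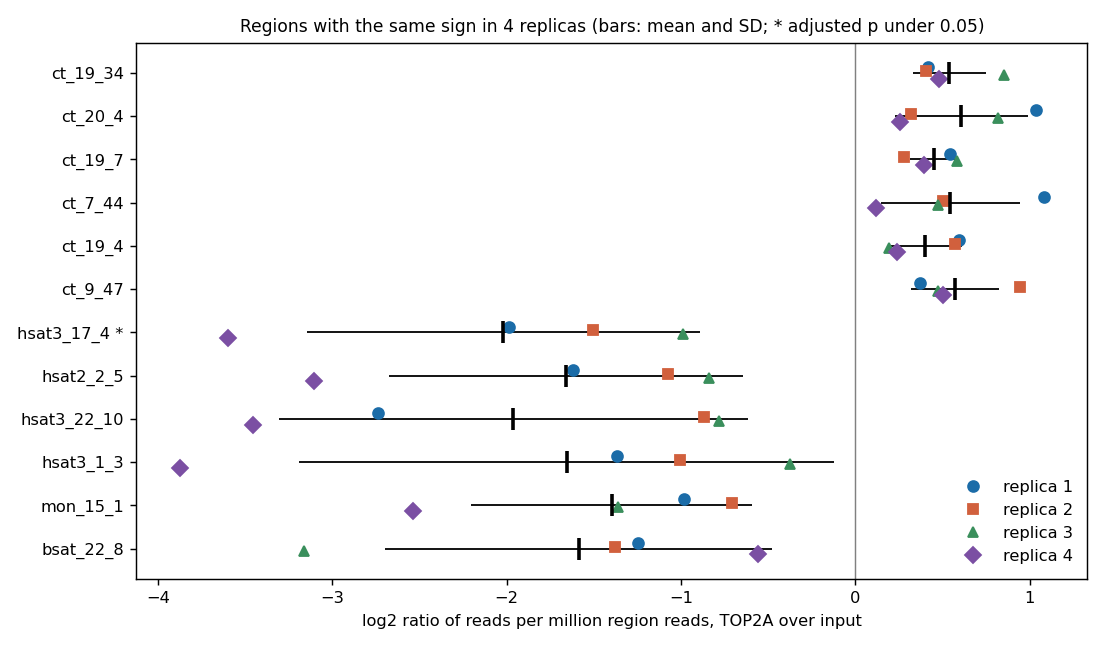
Log2 ratio of CPM, TOP2A over input, in the 6 regions named at the higher end (top) and the 6 at the lower end (bottom). Points are replicas, the upright bar is the mean and the line the SD over 4 replicas, and the star marks adjusted p under 0.05. The higher regions lie within 0.12 and 1.08, and the lower ones reach -3.88 in replica 4.

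HSat4, a small satellite family on chromosomes 16, 19 and X in these files, was singled out after its values were seen. Its 15 regions together had 1306, 3364, 837 and 3327 CPM in TOP2A, against 107, 1057, 2843 and 1800 in input. TOP2A was higher in replicas 1, 2 and 4 and lower in replica 3, where only 20 TOP2A reads were counted. The log2 ratios were 3.60, 1.67, -1.73 and 0.89 (mean 1.11, SD 2.21). Of the 15 regions 14 were tested, all 14 had a positive fitted change (median 1.61), 11 had an unadjusted p under 0.05, beside 37 of all 1068 regions (3.46%), and 0 passed the threshold (0.0% of all 1068 regions). Without replica 3, the 1 replica with a ratio below 0, 11 of the 14 passed, beside 16 of all 1299 regions (1.23%). Among them, censat_19_11 had a fitted change of 2.44 (SE 0.50, edgeR adjusted p = 0.0157). That of censat_16_36 was 2.23 (SE 0.38, edgeR adjusted p = 0.0132). The family was picked from these data and the replica left out is the contrary one, so these calls are no separate support. Regions of the family are also not independent of each other. HSat4 ratios without drug were 1.68, 0.18, -0.46 and 1.83, those of TOP2B with etoposide were 1.82, 0.32, -1.35 and 0.71, and those of TOP2A with mitoxantrone were 0.06, -0.99 and -0.15. Replica 3 was also the lowest replica without drug and for TOP2B. In replica 4, HSat4 had 3327 CPM in TOP2A with etoposide, against 2954 in TOP2B and 1800 in input with that drug. Without drug, replica 4 had 1789 in TOP2A, 1626 in TOP2B and 503 in input. By HSat4, the replica 4 TOP2A library with etoposide thus lay nearest to TOP2B with etoposide. By HSat1B on chromosome Y, at 888 CPM, it lay nearest to TOP2B without drug, at 768. Beta satellite without LSAU, at 3830 CPM, placed it nearest to TOP2A without drug, at 3952. There, TOP2B and input with etoposide had 5250 and 5460. Beta satellite with LSAU, at 5673 CPM, placed it nearest to input with etoposide, at 5505.

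**Figure D5:**
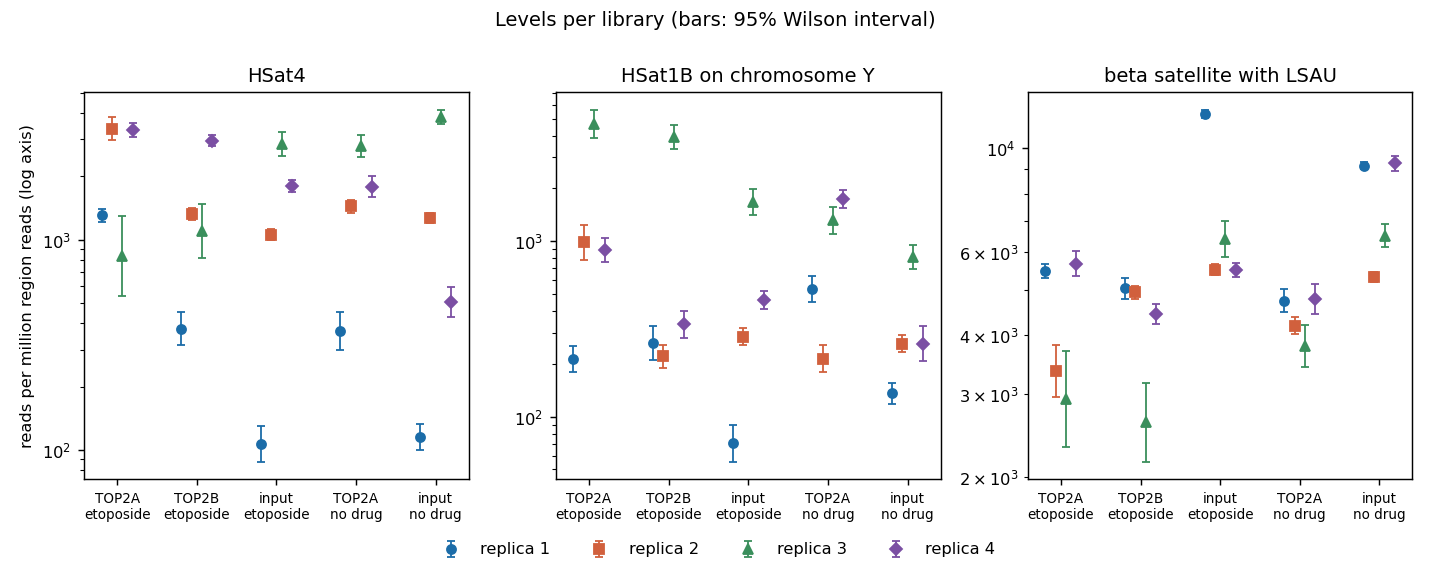
Levels in CPM of region reads (log axis) of HSat4, of HSat1B on chromosome Y and of beta satellite with LSAU, in the etoposide-series libraries of 5 groups. Points are replicas and bars are 95% Wilson intervals of counting error. HSat1B on chromosome Y is highest in replica 3 with etoposide, at 4644 in TOP2A and 1667 in input, and HSat4 spans 837 to 3364 in TOP2A and 107 to 2843 in input.

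The calls made without replica 3 are given because the ratio of that replica ran the other way in most of them. Of the 98 lower calls 36 were HSat3 (of 92 tested), 36 monomeric alpha satellite (of 124), 13 HSat2 (of 40) and 6 divergent higher-order alpha satellite (of 44), and in 19 of the 98 the replica 3 ratio had the same sign. It had the opposite sign in 76, and the remaining 3 had 0 reads in both replica 3 libraries. These signs were taken after scaling and the pseudocount, so some rest on very few reads. In hsat3_15_13 and hor_16_5, 0 TOP2A reads against 1 input read gave a ratio of 0.11 and counted as opposite. In hsat3_22_15, 1 read against 1 did so too. The fit with replica 3 included reused the libraries of replicas 1, 2 and 4, so its signs are no separate support for these calls. Its fitted change had the same sign in all 95 of the 98 that were tested there and in all 16 of the higher calls. The strongest by adjusted p was dhor_3_2, a divergent alpha satellite region on chromosome 3, with log2 ratios of -2.12, -1.37, 1.60 and -3.18 (fitted change without replica 3 of -2.14, SE 0.28, edgeR adjusted p = 0.00199). Of the 16 higher calls 11 were HSat4, 4 were transition regions (ct_7_49, ct_7_2, ct_12_9 and ct_19_27) and 1 was HSat1B, and in 0 of the 16 did replica 3 have the same sign. These values leave out every library of replica 3, TOP2B and no drug included.

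The most abundant regions of each class showed how far the replicas ranged. hor_8_2, the array on chromosome 8, had 13.9, 1267, 711 and 27.6 CPM in TOP2A, against 90.5, 408, 258 and 758 in input, and its fitted change was -0.57 (SE 0.70, edgeR adjusted p = 0.792). TOP2A was lower in replicas 1 and 4 and higher in replicas 2 and 3, as for its class. hor_17_2, on chromosome 17, had log2 ratios of -1.48, 0.44, 1.00 and -2.50 and a fitted change of -0.70. The fitted changes were -0.86 for dhor_6_1 and -1.38 for dhor_3_2, -0.51 for mon_8_1 and -0.75 for mon_10_1, -1.19 for hsat2_16_15 and -0.71 for hsat2_1_6, and -1.03 for hsat3_9_3 and -1.58 for hsat3_20_3. Their edgeR adjusted p-values lay between 0.0917 for hsat3_20_3 and 0.660 for hsat2_1_6.

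In the other classes the abundant regions were as follows. bsat_1_1, a beta satellite and LSAU composite on chromosome 1, had 1180, 774, 628 and 1175 CPM in TOP2A, against 2796, 1219, 1176 and 1222 in input, with a fitted change of -0.68 (SE 0.27, edgeR adjusted p = 0.200), and bsat_22_6 had -0.69 (SE 0.26, edgeR adjusted p = 0.178). Both were lower in all 4 pairs. hsat1B_Y_40 had 12, 13, 19 and 17 reads in TOP2A, against 6, 24, 9 and 39 in input, and its fitted change was 1.85 (SE 0.56, edgeR adjusted p = 0.127), while hsat1B_Y_29 had 1.55 (SE 0.62, edgeR adjusted p = 0.207). gsat_8_7 and gsat_8_6, gamma satellite on chromosome 8, had fitted changes of -0.28 and -0.21, hsat1A_13_1 and hsat1A_15_1 had 0.36 and 0.00, and censat_Y_23 and censat_Y_30 had 0.28 and 0.33. ct_8_1 and ct_17_31, labelled as chromosome arms, had -0.01 (SE 0.12) and 0.06 (SE 0.21). Of the 5 ribosomal DNA arrays, rDNA_22_1 had the largest fitted change, 1.53 (SE 0.63, edgeR adjusted p = 0.214), from 23, 7, 0 and 19 reads in TOP2A, against 31, 10, 5 and 13 in input, and rDNA_13_1, rDNA_14_1, rDNA_15_1 and rDNA_21_1 had 0.11, 0.28, 0.19 and 0.29.

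Whether the ratio of TOP2A to input depended on the drug was tested as the ratio with etoposide minus that without drug. In edgeR 0 of 1068 regions were higher (0.0%) and 0 were lower (0.0%), 22 had an unadjusted p under 0.05 (2.06%), and DESeq2 and limma voom called 0 as well. Among classes the smallest exact sign permutation p was 0.25, for beta satellite, with differences of -0.28, -0.25, -0.36 and 0.17 (mean -0.18, SD 0.24). HSat1B had -0.55, 2.21, 0.97 and -1.27 (mean 0.34, SD 1.56, exact p = 0.75). Higher-order alpha satellite had -1.29, 0.55, 1.37 and -3.46 (mean -0.71, SD 2.15, exact p = 0.75). For hsat3_17_4 the difference was -1.44 (edgeR unadjusted p = 0.0108, adjusted 0.945).

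Against TOP2B pulled down from the same treatment, edgeR called 0 of 1068 regions higher in TOP2A (0.0%) and 0 lower (0.0%), 114 had an unadjusted p under 0.05 (10.7%), and DESeq2 and limma voom called 0. HSat3 was lower in TOP2A in 4 of 4 replicas, with -0.06, -0.10, -0.03 and -2.37 (mean -0.64, SD 1.16, exact sign permutation p = 0.13, adjusted 0.75), so that replica 4 made most of the mean. The remaining centromeric satellites were higher in 4 of 4 replicas, with 0.23, 0.36, 0.22 and 0.15 (mean 0.24, SD 0.09, exact p = 0.13, adjusted 0.75). Ribosomal DNA had -0.48, 1.32, 0.89 and 0.94 (mean 0.67, SD 0.79, exact p = 0.25). In replica 4 the alpha satellite classes were lower in TOP2A than in TOP2B, with a log2 ratio of -2.95 for monomeric alpha satellite, and in replicas 1, 2 and 3 that ratio was -0.10, -0.77 and 0.06. The mean was -0.94 (SD 1.39, exact p = 0.25).

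The TOP2A to input ratios with etoposide were also set against those with mitoxantrone, a TOP2 poison of another chemical class, in 3 replicas. Doses differed between the drugs, at 100 µM and 20 µM. HSat1A had log2 ratios of -1.82, 0.00, 2.23 and -0.61 with etoposide, against 1.83, 3.94 and 1.97 with mitoxantrone, and the difference of the means was -2.63 (exact label permutation p = 0.114, adjusted over 12 classes 0.539). For HSat1B the ratios with mitoxantrone were -0.06, 2.50 and -0.03, and the difference of the means was 0.65 (exact label permutation p = 0.429). No class difference between the drugs reached 0.05, where 4 against 3 replicas can reach 0.0286.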

How the data were processed

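The deposited table gives a read count per named region and library, with no normalisation applied by the authors. Per the submitters' processing notes, Trimmomatic 0.36, BWA 0.7.17, HTSeq and a telomere-to-telomere CHM13 genome build were used; the mapping quality minimum is not given in the sources used here, and region lengths were not used, so levels were not compared between regions. Libraries were grouped by their labels. The replica name in the labels pairs them, and this pairing was kept. The deviations of TOP2A and input from their group means correlated by 0.66, 0.56, 0.14 and -0.46 in replicas 1 to 4. TOP2A replicas 1 and 2 matched their own input best. TOP2A replica 3 matched input replica 2 best and TOP2A replica 4 input replica 1, so the correlations did not favour the labelled pair there. No 2 libraries of a group were duplicates. Regions were tested with edgeR 4.0.16 (TMM, filterByExpr minimum count 10, Benjamini-Hochberg over the regions tested, two-sided, threshold 0.05; 12 residual degrees of freedom), checked on simulated counts. DESeq2 1.42.0 and limma 3.58.1 were alternatives. Class shares were tested by exact two-sided permutation, adjusted over 12 classes. Named regions were, at each end, those past the threshold or, up to 6, of smallest p, with the same sign in 4 replicas and a mean of at least 50 reads, plus the 2 most abundant per class and all ribosomal DNA arrays. Members and lists were chosen with earlier results of these data known.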

Additional observations from a re-analysis of the deposited data

Results flagged for a closer look

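Of 81 groups of 4 values checked, 6 had 1 value far from the other three by Dixon's criterion, which chance gives in about 1 group in 20. HSat1A took 1.61% of region reads in the TOP2A library of replica 3 with etoposide, and the next highest TOP2A library had 0.0887%. HSat1B took 0.828% in the same library, and the next highest had 0.135%. Ribosomal DNA took 0.133% in the input library of replica 3 with etoposide, and the next highest input had 0.0403%. The log2 ratio of TOP2A to input was 0.85 for ct_19_34 in replica 3, with the next at 0.48. For hsat1A_15_1 it was 2.62 in replica 3, with the next at -0.48, from 29 TOP2A and 15 input reads. For bsat_22_6 it was -0.094 in replica 4, with the next at -0.94. Of the 6 values, 5 came from replica 3, whose TOP2A and input libraries were the shallowest of their groups. In 24 pairs of class ratios compared between etoposide and no drug or mitoxantrone, 0 had every replica on opposite sides of 0.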

How the results depend on the processing

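The few reads per satellite region in the TOP2A libraries, the lone cell line and the spread between replicas limit all values. As class shares, HSat1B stayed above input and beta satellite below it in every setting run. The median fitted change of single beta satellite regions was 0.02, and 0.09 without replica 3. Regions called higher and lower than input numbered 6 and 20 with DESeq2, 7 and 1 with limma voom, 10 and 114 of 2305 without the filter, and 0 and 32 with all reads as library size. They numbered 0 and 0 without the replicate block, with 8 libraries only, and in replicas 1 and 2 or replicas 3 and 4 alone, both chosen after seeing the data. Leaving out 1 replica gave 0 to 16 higher and 0 to 98 lower. RLE factors, totals without TMM, region plus no-feature totals and a mean of at least 50 reads left 0 and 1. Against TOP2B the calls were 1 and 18 without the filter, and 0 to 1 lower on leaving out a replica. The median fitted change of all regions was -0.13, against -0.36 with all reads, -0.36 without the filter and -0.02 with voom. Without the replicate block, beta satellite had p = 0.0286 (exact label permutation, not adjusted over classes) at -0.54. The sign turned for HSat1A with a pseudocount of 5 (0.10) or the region median (0.14), and for transition with all reads as denominator (-0.14) or the region median (-0.0057). With all reads it also turned for transition against TOP2B (-0.18), and against mitoxantrone for transition (-0.11) and other centromeric satellites (-0.10). The cause was not tested for any of these.

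Among named regions the sign turned without the replicate block for hor_8_2 (0.23), hsat2_1_6 (0.37), hsat3_9_3 (0.038), ct_8_1 (0.015), rDNA_13_1 (-0.26) and rDNA_15_1 (-0.045). With voom it turned for hsat1A_13_1 (-0.23), hsat1A_15_1 (-0.18), hsat2_1_6 (0.16), gsat_8_7 (0.34), gsat_8_6 (0.33), rDNA_13_1 (-0.11) and rDNA_15_1 (-0.35). With all reads as library size it turned for hsat1A_15_1 (-0.22), ct_17_31 (-0.14), rDNA_13_1 (-0.13) and rDNA_15_1 (-0.059). Without the filter it turned for hsat1A_15_1 (-0.15), ct_17_31 (-0.10) and rDNA_13_1 (-0.027). DESeq2 turned hsat1A_15_1 (-0.11) and ct_8_1 (0.0021), and RLE factors turned ct_8_1 (0.00069), as did a mean of at least 50 reads (0.020). Totals without TMM turned hsat1A_15_1 (-0.0053), and region plus no-feature totals turned hsat1A_15_1 (-0.019) and rDNA_13_1 (-0.00016). In 8 libraries only, rDNA_13_1 had -0.019. In replicas 1 and 2, hsat1A_13_1 had -0.16, hsat1A_15_1 -0.74, ct_17_31 -0.024, rDNA_21_1 -0.071 and rDNA_14_1 -1.63. In replicas 3 and 4, censat_Y_23 had -0.65, ct_8_1 0.039 and rDNA_13_1 -0.24.

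Leaving out each replica in turn spanned 0 for these class ratios of TOP2A to input: HSat1A -0.81 to 0.54, transition -0.00092 to 0.048, gamma satellite -0.82 to 0.036, higher-order alpha satellite -1.56 to 0.035, other centromeric satellites -0.31 to 0.043, ribosomal DNA -0.15 to 0.67, and the low mapping quality share -0.039 to 0.34. Against TOP2B the ranges were -0.48 to 0.54 for HSat1A, -0.12 to 0.10 for beta satellite and -0.86 to 0.24 for higher-order alpha satellite. Against mitoxantrone they were -0.55 to 0.31 for gamma satellite, -0.14 to 0.22 for other centromeric satellites and -0.52 to 0.30 for ribosomal DNA. Etoposide minus no drug spanned -0.98 to 0.45 for HSat1A, -0.29 to 0.88 for HSat1B, -1.36 to 0.10 for HSat2, -1.17 to 0.27 for HSat3, -0.019 to 0.022 for transition, -0.074 to 1.18 for gamma satellite, -1.40 to 0.21 for higher-order alpha satellite and -0.21 to 1.02 for ribosomal DNA. Of named regions, censat_Y_23 spanned -0.28 to 0.77, ct_17_31 -0.31 to 0.39, ct_8_1 -0.22 to 0.13, gsat_8_6 -0.69 to 0.18, gsat_8_7 -0.70 to 0.13, hor_8_2 -1.98 to 0.20, hsat1A_13_1 -0.053 to 0.68, hsat1A_15_1 -0.79 to 0.36, hsat2_1_6 -1.85 to 0.18, mon_8_1 -1.01 to 0.057, rDNA_13_1 -0.68 to 0.82, rDNA_14_1 -1.63 to 1.56, rDNA_15_1 -0.46 to 0.89 and rDNA_21_1 -0.22 to 0.71.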
